A study of Mus musculus with 4 samples.

Results

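DNA methylation is written and removed by a small set of enzymes. Dnmt1 copies methylation onto the new strand after replication, and Uhrf1 brings it to half-methylated DNA. Dnmt3a and Dnmt3b place new methylation, and Dnmt3l is a partner of theirs without catalytic activity that is known from germ cells and early embryonic cells. The TET enzymes Tet1, Tet2 and Tet3 oxidise methylated cytosine, which starts its removal. In the mouse embryo Dnmt3b is known as the de novo enzyme of the epiblast, and Dnmt3a as the one that later tissues keep. The 8 genes Dnmt1, Dnmt3a, Dnmt3b, Dnmt3l, Uhrf1, Tet1, Tet2 and Tet3 were taken by name from a table of 20284 genes, and all 8 were found in it.

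RNA of single cells was counted in mouse embryoid bodies at day 9, which are aggregates of differentiating embryonic stem cells. One group of 2 libraries came from control stem cells. The other group of 2 libraries came from stem cells given a pulse of DUX, a transcription factor of the early mouse embryo, and the design calls the libraries of a group biological replicates. The labels name no strain, clone, dose or length of the pulse, and call the material organoids cultured from stem cells. Every level below is in CPM, the count per 1000000 unique molecular identifiers (UMIs, 1 per captured RNA molecule) of the cells summed. CPM is not scaled to transcript length, so levels are compared between samples and cell groups, not between genes.

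After filtering, 8876 of 10090 cells were kept, with 2824 and 2636 cells in the control libraries against 2063 and 1353 after the DUX pulse, at median depths of 27260 to 30402.5 UMIs. The median mitochondrial share was 6.22% and 6.42% in control libraries, above the 4.01% and 4.54% of the DUX-pulsed pair. Cells fell into 20 clusters, of which 12 took the name of a cell type from marker genes, and the 8 genes were left out of the clustering. The groups held different cells: clusters 5, 6, 16, 17, 18 and 19 had at least 184 cells in each control library and at most 15 in each DUX-pulsed one. Only 7 cell barcodes of kept cells were shared between libraries.

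In the whole culture, Dnmt3b fell and Tet2 rose in DUX-pulsed embryoid bodies, and Dnmt3a rose by a smaller amount that did not hold under several settings. The levels of Dnmt1, Uhrf1 and Tet3 overlapped between the groups. The test called 3 of the 8 genes at an adjusted p under 0.05 (edgeR quasi-likelihood test), against a background of 26.7% of the 16140 genes tested, of which 15.6% were higher and 11.1% lower in the DUX-pulsed libraries. A count of 3 in 8 is near that background. The 2 libraries of each group lay apart from the other group without overlap for 5 of the 8 genes, and for 67.6% of all genes tested.

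**Figure D1:**
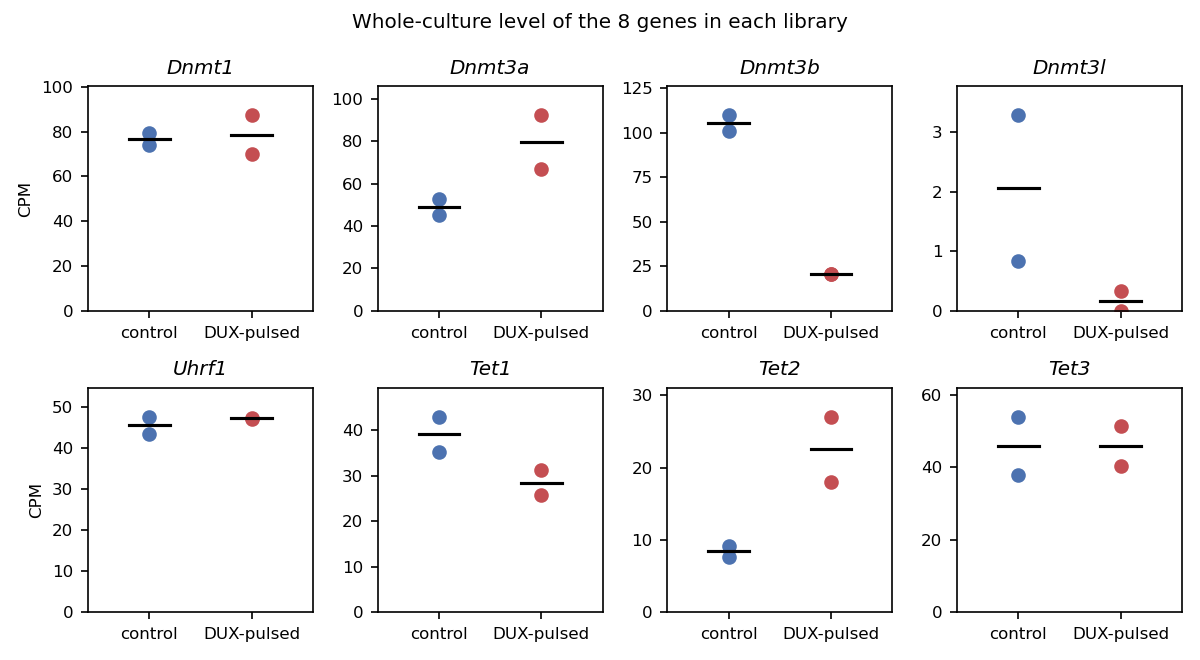
Whole-culture level in CPM (vertical axis, from 0) of each of the 8 genes in the 2 control libraries (blue) and the 2 DUX-pulsed libraries (red), with the mean of each group as a line. Dnmt3b sits near 105 CPM in the controls and near 21 in the DUX-pulsed libraries, Tet2 and Dnmt3a are higher in both DUX-pulsed libraries, and the points of Dnmt1, Uhrf1 and Tet3 overlap.

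Dnmt3b gave the clearest difference. Its level was 109.9 and 100.9 CPM in the control libraries against 20.59 and 20.93 CPM after the DUX pulse, so that the groups were far apart and the 2 libraries of each close together. It fell, with a log2 change of -2.34 (SE 0.146, adjusted p = 0.00196). In such a sum, fewer cells of a type and less RNA per cell cannot be told apart. Dnmt3b lies at chr2:153649450-153687730 on the plus strand (mm10). The 145 tested genes within 5 Mb of it had a median log2 change of 0.03, against -0.001 over all tested genes with a position. An antisense gene, Dnmt3bos, overlaps Dnmt3b and was listed apart with 17 and 12 UMIs in the controls against 5 and 2 after the DUX pulse. Whether the counting used strand is not given in the sources used here.

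Across the clusters Dnmt3b had the widest range of the 8 genes apart from Dnmt3l. It was highest in cluster 18, led by Fgf5, Eomes and Trh and left unnamed, at 296.1 and 350.3 CPM in the control libraries. The primitive streak-like cluster 19, which shares Eomes, Trh and Fgf5 among its leading genes, had 216.7 and 272.2 CPM. Visceral endoderm-like cells of cluster 6 had 91.6 and 120 CPM. These 3 clusters hold almost no DUX-pulsed cells, at most 4 per library in any of them. In the parietal endoderm-like cluster 3, which both groups contain, the level was 41.6 CPM in control replicate 1 and 47.4 and 107.8 CPM in the DUX-pulsed libraries, and in the 8 cells of control replicate 2 it was 71.8 CPM (13 UMIs, 95% Poisson interval 38.2 to 122.7), so the groups overlap.

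At the other end, Dnmt3b was nearly silent in heart cells and erythroid cells. Cardiomyocyte-like clusters 1, 2 and 14 had means of 2.17, 3.90 and 1.69 CPM and erythroid-like cells of cluster 12 had 2.85 CPM. Neighbours in this order overlap between libraries, and cluster 2 was above cluster 14 in each. Mesenchyme-like clusters 0 and 13 had 12.5 and 7.70 CPM, with 7.81 CPM in cluster 0 when 1 cell of DUX-pulsed replicate 2 is left out, and endothelium-like cells of cluster 8 had 9.09 CPM.

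Clusters 18 and 19 together gave 68.2% and 71.8% of all Dnmt3b UMIs of the control libraries, from 19.6% and 15.5% of their cells. In the DUX-pulsed libraries the same clusters were 0.291% and 0.518% of cells, and still gave 8.14% and 32.5% of the Dnmt3b UMIs. The parietal endoderm-like cluster 3 gave 50.1% of them in DUX-pulsed replicate 1, from 12.2% of its cells, and 15.2% in DUX-pulsed replicate 2. Cardiomyocyte-like and mesenchyme-like cells, 41.6% and 45.2% of the DUX-pulsed cells, gave 9.70% and 22.5% of their Dnmt3b UMIs, and 12.9% in place of 22.5% without 1 cell of cluster 0.

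**Figure D2:**
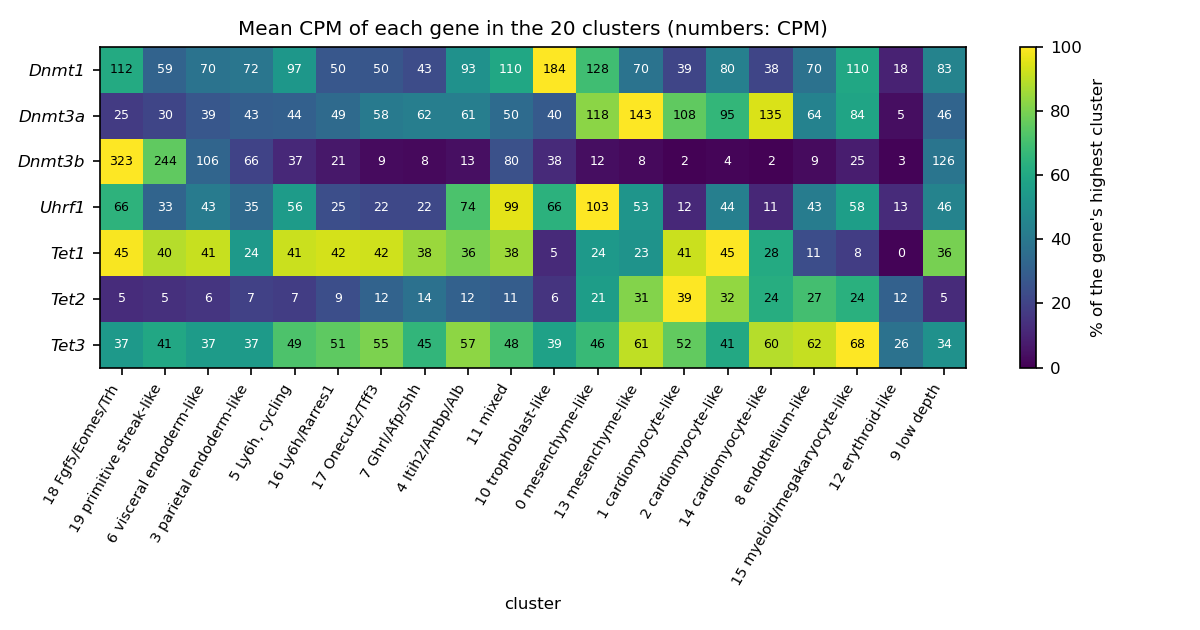
Mean level in CPM (number in each box) of 7 of the genes in the 20 clusters, over the libraries with at least 20 cells of the cluster, with colour as the percentage of the gene's own highest cluster. Dnmt3b is bright at the left, in clusters 18 and 19, and dark in the mesenchyme-like and cardiomyocyte-like clusters, where Dnmt3a and Tet2 are bright.

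The region before the Dnmt3b start and that before 1 of the 3 annotated starts of Dnmt3l are shown because both genes were high in the pluripotency-like cells described below and differ in their density of CpG, the site of methylation. Both are the 250 bases before a RefSeq transcript start (GRCm38.p6), at chr2:153649199-153649448 and chr10:78049592-78049841, both on the plus strand, with CpG in capitals.
Dnmt3b: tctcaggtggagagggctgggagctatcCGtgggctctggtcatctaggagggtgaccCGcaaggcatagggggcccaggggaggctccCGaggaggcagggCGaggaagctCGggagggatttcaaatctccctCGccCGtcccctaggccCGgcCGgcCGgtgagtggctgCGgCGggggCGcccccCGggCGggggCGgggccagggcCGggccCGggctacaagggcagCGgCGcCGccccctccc
Dnmt3l: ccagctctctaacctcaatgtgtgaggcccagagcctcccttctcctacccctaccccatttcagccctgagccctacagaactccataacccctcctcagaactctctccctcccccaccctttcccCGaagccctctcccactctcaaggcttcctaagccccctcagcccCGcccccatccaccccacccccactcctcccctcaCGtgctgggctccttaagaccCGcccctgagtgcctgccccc
The Dnmt3b window holds 21 CpG, more than 83.7% of the 32851 promoter windows of the same length, whose median is 6. The Dnmt3l window holds 4, and the windows at its other starts hold 5 and 3. No methylation was measured in these samples, so the counts describe the sequence only.

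Dnmt3l was rare and uneven. It lies at chr10:78041947-78063622 on the plus strand, in a region where Aire overlaps it on the other strand. The kept cells held 313 and 69 of its UMIs in the control libraries against 21 and 0 after the DUX pulse. With a floor of 3 counts, the 0 of DUX-pulsed replicate 2 allows up to 0.0823 CPM. The whole-culture log2 difference was -3.41 (SE 1.09, adjusted p = 0.0660), which did not pass, and the control libraries, at 3.28 and 0.839 CPM, were farther from each other than control replicate 2 was from DUX-pulsed replicate 1 at 0.335 CPM. Without control replicate 1 the difference was -2.11 (adjusted p = 0.165), and without control replicate 2 it was -4.10 (adjusted p = 0.0121).

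Few cells carried those molecules. In control replicate 1, 212 of the 313 UMIs came from 30 cells that split off from cluster 11 and took the name pluripotency-like, with 14 of 18 pluripotency markers raised. Their Dnmt3l level was 114 CPM (95% Poisson interval 99.2 to 130.4, which covers counting error only), with a UMI in 19 of the 30 cells. Of the cells of cluster 11, which alone was split, none of control replicate 2 or DUX-pulsed replicate 2 and 1 of DUX-pulsed replicate 1 fell in this subset. The next largest source was the parietal endoderm-like cluster of control replicate 1, with 48 UMIs in 13 of 52 cells at 18.6 CPM, against 0.807 CPM in 252 such cells of DUX-pulsed replicate 1. In control replicate 2, 1 cell of the cycling Ly6h cluster 5 held 41 of the library's 69 UMIs.

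Cells with at least 5 Dnmt3l UMIs numbered 19, and they held 295 of the 403 UMIs of all libraries. Of these cells 10 are pluripotency-like cells, which Dppa5a and Pou5f1 themselves helped to name, so the shares that follow are partly set by that choice. Dppa5a, a pluripotency marker, was detected in 18 of the 19, against 4.44% of all kept cells. Pou5f1, the core pluripotency factor, was detected in 11 of the 19 against 1.94% of all kept cells, and in the 5 parietal endoderm-like cells of control replicate 1 among the 19 it was at 0. The cell in cluster 5 had 17 Pou5f1 and 227 Dppa5a UMIs. These cells were singled out after their values were seen, and 18 of them have 44066 UMIs or more, above the library medians.

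The 30 pluripotency-like cells had a profile of their own across the family, in 1 library. Dnmt3b was at 359 CPM (95% Poisson interval 332.5 to 387.5), Tet1 at 59.2 CPM (48.6 to 71.3) and Dnmt1 at 105.4 CPM. Tet3 was at 5.92 CPM (2.95 to 10.6), below its level in each of the 20 clusters, whose means ran from 25.7 to 68.0 CPM. Tet2 was at 3.23 CPM (1.18 to 7.02) and Dnmt3a at 37.1 CPM. This is a description of 1 group of cells chosen by clustering, with no replicate.

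Dnmt3a, at chr12:3806007-3914443 on the plus strand, was highest in other cells than Dnmt3b. Its level in the whole culture was 45.2 and 52.6 CPM in the controls against 66.9 and 92.1 CPM after the DUX pulse, with no overlap but a wide gap between the DUX-pulsed pair. It rose, with a log2 change of 0.70 (SE 0.199, adjusted p = 0.0479). The call was lost without control replicate 1 (adjusted p = 0.205), without control replicate 2 (0.108), without DUX-pulsed replicate 2 (0.112), with library size alone as the scale (0.0727), in all deposited cells (0.0506), without the top 5% of doublet scores (0.0546), and under stricter limits on a cell, 1000 genes or more and a mitochondrial share no higher than 5% (0.248). In the cells of the 5 cell groups present in all 4 libraries the log2 difference was -0.07 (adjusted p = 0.854).

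Among clusters Dnmt3a was highest in mesenchyme and heart. Mesenchyme-like clusters 13 and 0 had 143 and 118 CPM, and cardiomyocyte-like clusters 14, 1 and 2 had 135, 108 and 94.7 CPM. The libraries of cluster 13 (120.6 to 158.6 CPM) lay above those of clusters 1 and 2, and the other neighbours in this order overlap. The lowest were clusters 18 and 19, at 24.8 and 29.8 CPM, where Dnmt3b was highest, and erythroid-like cells at 5.43 CPM. Cardiomyocyte-like and mesenchyme-like cells gave 25.2% and 21.2% of the Dnmt3a UMIs of the controls, and 54.3% and 67.2% of those of the DUX-pulsed libraries. These cells were 12.0% and 8.57% of the control cells, and 41.6% and 45.2% of the DUX-pulsed cells.

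Tet2, at chr3:133463679-133545139 on the minus strand, was the TET gene that differed most. Its whole-culture level was 7.68 and 9.23 CPM in the controls against 18.1 and 27.0 CPM after the DUX pulse, and both DUX-pulsed values were above both controls. It rose, with a log2 change of 1.41 (SE 0.240, adjusted p = 0.00996). The 58 tested genes within 5 Mb had a median of 0.10, with 17.2% called higher. The highest means of Tet2 were those of cardiomyocyte-like clusters 1 and 2 at 38.6 and 32.4 CPM, mesenchyme-like cluster 13 at 31.4, endothelium-like cells at 27.1 and myeloid and megakaryocyte-like cells at 24.5 CPM, with ranges that overlap. These means rest on different libraries, and in DUX-pulsed replicate 1 cluster 13 (33.7 CPM) was above clusters 1 and 2 (29.5 and 23.5 CPM), so their order is not resolved. Visceral endoderm-like, streak-like and Fgf5 cells had 5.92, 5.33 and 4.90 CPM. Cardiomyocyte-like and mesenchyme-like cells held 23.2% and 18.8% of the Tet2 UMIs of the controls and 56.2% and 69.4% of those of the DUX-pulsed libraries. Their share of the cells differed too, at 12.0% and 8.57% in the controls against 41.6% and 45.2%.

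The region before the Tet2 start is shown because it has the most CpG among the windows of the family. It is the 250 bases before the RefSeq start, chr3:133544391-133544640 on the minus strand (GRCm38.p6), with CpG in capitals.
Tet2: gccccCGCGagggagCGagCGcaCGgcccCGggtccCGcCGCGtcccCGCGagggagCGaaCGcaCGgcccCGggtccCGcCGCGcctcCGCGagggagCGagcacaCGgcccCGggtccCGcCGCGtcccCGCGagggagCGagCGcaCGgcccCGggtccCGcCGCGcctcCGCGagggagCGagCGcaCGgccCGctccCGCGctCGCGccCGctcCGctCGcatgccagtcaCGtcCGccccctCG
It holds 51 CpG, more than 99.9% of promoter windows. The run CCGCGAGGGA occurs 5 times in it, each 42 bases from the next, and Tet2's is the only window of 32851 with at least 3 copies, counting both strands. The run was picked after the sequence was seen. Windows of Dnmt3a at its first 2 starts hold 38 and 40 CpG, and those of Tet3 and Tet1 hold 17 and 15.

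Over 56 sums of 1 cluster in 1 library, Dnmt3b and Tet2 ran in opposite directions, with Pearson's r = -0.64 and Spearman's rho = -0.71 on log2(CPM + 1). Within the 30 control sums r was -0.79, and within the 26 DUX-pulsed sums it was -0.59. Dnmt3a and Tet2 ran together (r = 0.50, rho = 0.77). Dnmt3a and Dnmt3b had r = -0.29 and rho = -0.54, with r = -0.45 in control sums and -0.04 in DUX-pulsed ones. The sums share libraries, clusters and depth, so the correlations are descriptions with no test.

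**Figure D3:**
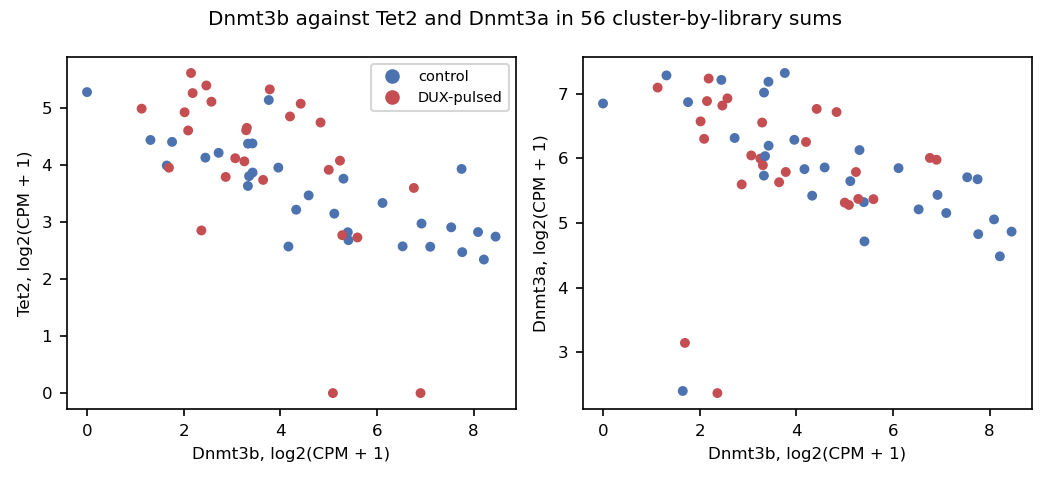
Dnmt3b (horizontal) against Tet2 (left panel, vertical) and Dnmt3a (right panel, vertical), each as log2(CPM + 1), in 56 sums of 1 cluster in 1 library with at least 20 cells, blue for control and red for DUX-pulsed. Points with high Dnmt3b have low Tet2 (r = -0.64), 2 DUX-pulsed sums at 0 Tet2 belong to the low-depth cluster 9, and the relation with Dnmt3a is looser (r = -0.29).

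Tet1, at chr10:62804570-62908996 on the minus strand, was lower in the DUX-pulsed libraries without passing the test. Its whole-culture level was 35.2 and 42.9 CPM in the controls against 25.7 and 31.3 CPM after the DUX pulse, with a log2 difference of -0.46 (SE 0.176, adjusted p = 0.108). Among clusters it was level over much of the culture, at 36.1 to 44.9 CPM in 11 of the 20 clusters, from the streak-like and visceral endoderm-like clusters to cardiomyocyte-like clusters 1 and 2. It was lower in endothelium-like cells (10.6 CPM), myeloid and megakaryocyte-like cells (8.24 CPM) and trophoblast-like cells (5.35 CPM, 1 library). In erythroid-like cells 1 UMI of Tet1 was counted in 138 cells (0.373 CPM on average).

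Tet3, at chr6:83362373-83459084 on the minus strand, showed no detectable difference between groups. Its level was 37.8 and 53.9 CPM in the controls against 40.3 and 51.2 CPM after the DUX pulse, fully overlapping, with a log2 difference of -0.003 (SE 0.221, adjusted p = 0.993). Its cluster means had the narrowest range of the 8 genes in proportion. Dnmt3a, Tet1, Tet2 and Tet3 were each lower in replicate 1 than in replicate 2 of both groups. The labels give no batch, and the part of the library in this was not tested.

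The maintenance pair showed no detectable difference between the whole cultures. Dnmt1, at chr9:20907209-20959888 on the minus strand, was at 79.4 and 73.8 CPM in the controls against 87.3 and 70.0 CPM after the DUX pulse, with a log2 difference of 0.04 (SE 0.165, adjusted p = 0.890). Uhrf1, at chr17:56303321-56323486 on the plus strand, was at 43.6 and 47.7 CPM and at 47.2 and 47.5 CPM, with a log2 difference of 0.05 (SE 0.138, adjusted p = 0.809). Both ranges overlap. The 66 tested genes within 5 Mb of Uhrf1 had a median of -0.17.

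Both genes varied strongly between cell groups. Dnmt1 was highest in trophoblast-like cells at 184 CPM in the 1 library with enough of them, then in mesenchyme-like cluster 0 at 127.5 CPM, and lowest in erythroid-like cells at 17.96 CPM. Uhrf1 was highest in mesenchyme-like cluster 0 at 103 CPM and cluster 11 at 98.7 CPM, whose ranges overlap. It was lowest in cardiomyocyte-like clusters 1 and 14, at 11.8 and 11.4 CPM, and in erythroid-like cells at 12.6 CPM. The 2 mesenchyme-like clusters were apart for both genes: in cluster 13 Dnmt1 was at 70.3 CPM and Uhrf1 at 53.4 CPM, and in each library they were below cluster 0.

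These levels tracked a list of 37 S phase genes. Over the 56 sums, the summed level of the list correlated with Dnmt1 at r = 0.88 (rho = 0.84) and with Uhrf1 at r = 0.83 (rho = 0.80). The values within control sums were 0.89 and 0.77, and within DUX-pulsed sums 0.89 and 0.88. Dnmt1 and Uhrf1 correlated with each other at 0.85. Dnmt3b came next at 0.63, while Dnmt3a was at 0.21 and Tet2 at -0.36. Trophoblast-like cells, at 184 CPM of Dnmt1 with 2684 CPM of S phase genes, were above cluster 18 of control replicate 1, at 113.6 CPM with 3066.

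**Figure D4:**
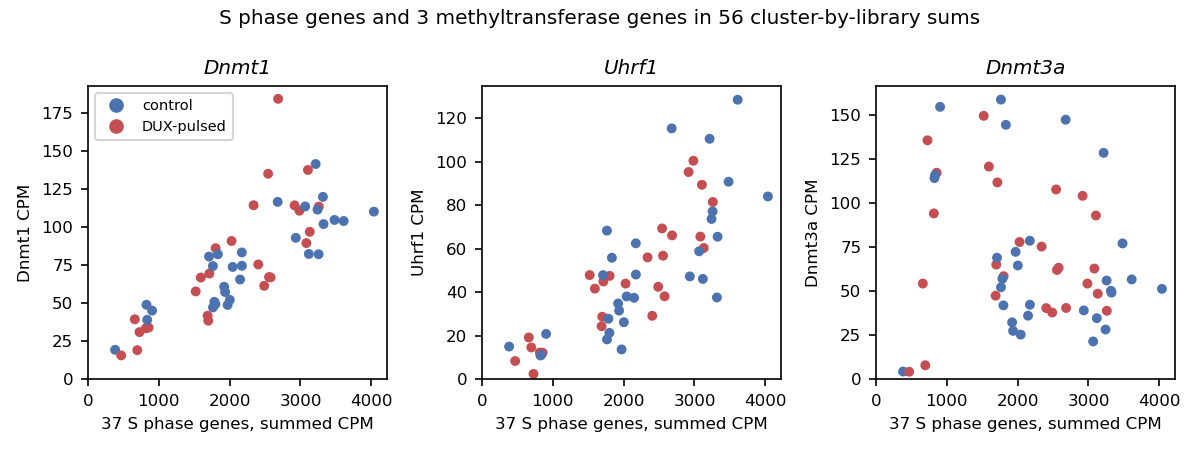
Level in CPM of Dnmt1, Uhrf1 and Dnmt3a (vertical axes, from 0) against the summed CPM of 37 S phase genes (horizontal axis) in 56 sums of 1 cluster in 1 library, blue for control and red for DUX-pulsed. Dnmt1 and Uhrf1 rise along the axis in both colours (r = 0.88 and 0.83), and Dnmt3a does not form a line (r = 0.21).

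A window before a Uhrf1 start is shown because it holds a match to TTTNNCGC, where N is any base. This is a loose form of the site of E2F factors, which are known to drive S phase genes. It is the 250 bases before the RefSeq start, chr17:56304063-56304312 on the plus strand (GRCm38.p6), with the match in capitals.
Uhrf1: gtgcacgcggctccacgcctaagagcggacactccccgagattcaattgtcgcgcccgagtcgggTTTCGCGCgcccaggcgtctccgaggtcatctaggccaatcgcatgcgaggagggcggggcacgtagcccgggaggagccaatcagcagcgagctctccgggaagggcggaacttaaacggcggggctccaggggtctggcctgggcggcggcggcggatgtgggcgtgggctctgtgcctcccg
The match starts 185 bases before the start. The window of the other Uhrf1 start holds 1 match, TTTCTCGC, 56 bases before that start. Of the 3 Dnmt1 windows, 1 holds 2 overlapping matches on the other strand, GCGCGAAA and GCGAAAAA, at 219 and 217 bases before its start. Searched on both strands, 4.28% of all 32851 windows hold the motif, and none of the windows of the other 6 genes does. A match is a description of the letters and was not tested as a site.

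The second comparison asked whether the genes differed between control and DUX-pulsed cells of the same kind. Only 5 cell groups had at least 20 cells in all 4 libraries: cardiomyocyte-like cells, mesenchyme-like cells, cluster 4 (unnamed, led by Itih2, Ambp and Alb), cluster 11 (mixed) and cluster 9 (of low depth, median 1073 UMIs). Dnmt3l was too low to be tested in any of them. Among the other 7 genes, Tet2 in cardiomyocyte-like cells was the 1 call by edgeR in all of these fits. At an unadjusted p under 0.05 there were 2 of 7 in cardiomyocyte-like cells, beside 3331 of all 11342 genes tested there. In cluster 11 there were 3 of 7 (1999 of 10314 genes), and in mesenchyme-like cells 1 of 7 (2804 of 12084). In cluster 9 there was 1 of 6 (577 of 5088), and in cluster 4 there were 0 of 7 (2187 of 10772). DESeq2 called 1 gene (Dnmt3b) in cluster 11, where it called 281 of 10314 genes, and 0 in each of the other 4 groups.

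Tet2 was at 20.1 and 21.6 CPM in the cardiomyocyte-like cells of the controls and at 27.6 and 44.8 CPM in those of the DUX-pulsed libraries, without overlap. It rose, with a log2 change of 0.89 (SE 0.248, adjusted p = 0.0207), as 1 of 7 members called against a background of 16.8% of 11342 genes, and 9.02% that were higher. The call was lost when control replicate 1, control replicate 2 or DUX-pulsed replicate 2 was left out. It was also lost with DESeq2 (adjusted p = 0.0602), with library size alone as the scale, and with cells thinned to 5000 UMIs. The class was made of different clusters in the groups: cluster 14 held 101 and 80 of the 144 and 103 control cells, and clusters 1 and 2 held most of the 416 and 284 DUX-pulsed cells. In cluster 14 Tet2 was at 20.3 and 20.8 CPM in the controls. It was at 30.9 CPM in DUX-pulsed replicate 1 and at 27.75 CPM in the 19 cells of DUX-pulsed replicate 2. In cluster 1 control replicate 1, with 28 cells and 7 UMIs, was at 38.0 CPM (95% Poisson interval 15.3 to 78.4), between the 29.5 and 48.2 CPM of the DUX-pulsed libraries. The 12 cells of control replicate 2 there, with 2 UMIs, were at 24.53 CPM, below both. In cluster 2 the values were 12.33 and 25.07 CPM in the 15 and 11 control cells against 23.46 and 41.3 CPM. The part of the clusters in the difference was not tested.

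The estimates for Tet2 were above 0 in each of the other 3 groups where it was tested, none of them past the threshold. Mesenchyme-like cells had 19.9 and 26.2 CPM in the controls against 27.5 and 32.6 CPM after the DUX pulse (log2 0.55, SE 0.205, adjusted p = 0.143). In cluster 4 the values were 4.96 and 14.6 CPM against 12.4 and 15.8 CPM (log2 0.70, SE 0.387), which overlap. In cluster 11 they were 6.52 and 9.12 CPM against 14.2 and 15.9 CPM (log2 0.96, SE 0.382, adjusted p = 0.213), which do not. Over the cells of the 5 groups together the log2 difference of Tet2 was 0.82 (adjusted p = 0.0505). Of the 7 members tested in that fit 1 was called, as lower, beside 1308 of all 13973 genes.

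**Figure D5:**
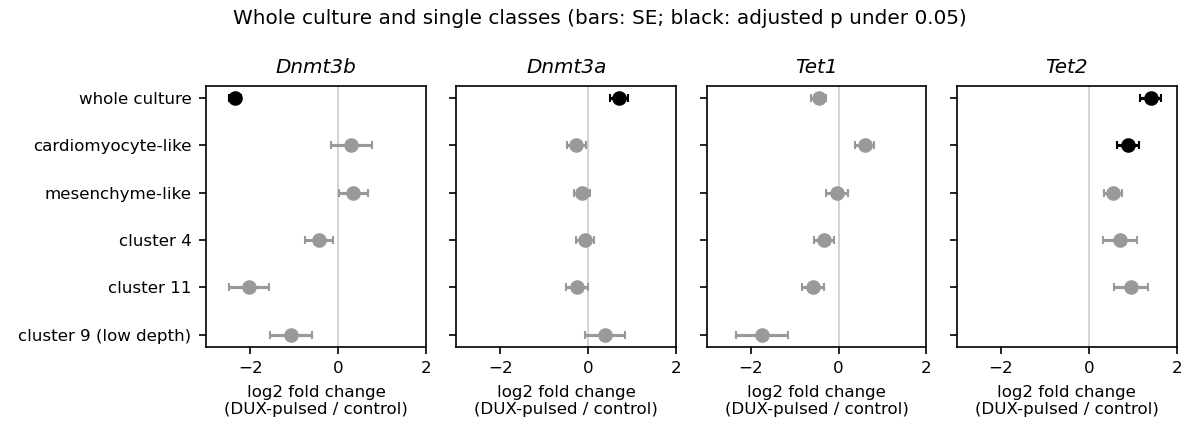
Log2 fold change of DUX-pulsed over control (horizontal axis) for Dnmt3b, Dnmt3a, Tet1 and Tet2 in the whole culture and in each of 5 cell groups, with bars of 1 SE; black points have an adjusted p under 0.05 and grey ones do not. Dnmt3b is at -2.34 in the whole culture and near 0.3 in cardiomyocyte-like and mesenchyme-like cells. Dnmt3a lies between -0.27 and -0.08 in the groups other than cluster 9. Tet2 is right of 0 in each row where it was tested, and has no point in cluster 9, where it was too low to be tested.

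The large whole-culture difference of Dnmt3b was not seen in the 2 largest shared cell types, where its level was low in both groups. Cardiomyocyte-like cells had 3.14 and 2.40 CPM in the controls against 2.97 and 3.52 CPM after the DUX pulse (log2 0.30, SE 0.463, adjusted p = 0.715). Mesenchyme-like cells had 9.36 and 8.83 CPM against 7.31 and 13.9 CPM (log2 0.35, SE 0.330, adjusted p = 0.588), where 8.77% of all genes were called. In both the groups overlap. In the other groups tested the Dnmt3b estimates were below 0 and did not pass with edgeR. They were -0.44 in cluster 4 (SE 0.317, adjusted p = 0.496), -1.07 in cluster 9 (SE 0.481, adjusted p = 0.444) and -2.03 in cluster 11.

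A single cell moved the mesenchyme-like value. In DUX-pulsed replicate 2, 1 cell of cluster 0 held 84 of the 123 Dnmt3b UMIs of that cluster, and without it the library's mesenchyme-like level was 5.83 CPM instead of 13.9, which puts both DUX-pulsed libraries below both controls. That cell had 96311 UMIs, 0 of Pou5f1 and of Dnmt3l, and 141 of the collagen gene Col1a1. Without the cells of the top 5% of doublet scores the class's log2 difference was -0.28 (adjusted p = 0.622). In cluster 13 alone Dnmt3b was at 9.73 and 12.6 CPM in the controls against 4.96 and 3.55 CPM after the DUX pulse, without overlap (log2 -1.22, SE 0.375, adjusted p = 0.0660; 8.76% of genes called). In cluster 0 alone the log2 difference was 1.41 (adjusted p = 0.181; 5.22% of genes called). Testing clusters 0 and 13 apart was chosen after seeing the data.

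In cluster 11 Dnmt3b was at 184.9 and 68.4 CPM in the controls against 31.1 and 36.7 CPM after the DUX pulse, a log2 difference of -2.03 (SE 0.449, adjusted p = 0.0510), just outside the threshold; 2.71% of genes were called there. The 30 pluripotency-like cells sit in the control replicate 1 part of this cluster. Depth differed too, with medians of 40783 and 7741 UMIs in the controls against 23595.5 and 1405.5 UMIs. A low-depth part (median 1133 UMIs) held 90 of the 134 cells of DUX-pulsed replicate 2 and 8 of the 97 of control replicate 1. The 18 pluripotency markers summed to 1746 CPM in control replicate 1 and to 366.6, 356.2 and 279.8 CPM in control replicate 2 and the DUX-pulsed libraries. None was at 0 in the first and 4, 2 and 8 were at 0 in the others. Markers at 0 also depend on the UMIs summed, which were 3985263 in the first and 1096531, 3250964 and 1254330 in the others. Without control replicate 1 the difference was -0.95 (adjusted p = 0.0614). In the part of the cluster led by Foxe1, with 27 to 52 cells in each library, Dnmt3b was at 38.4 and 71.9 CPM in the controls against 34.8 and 44.3 CPM after the DUX pulse (log2 -0.42, SE 0.291, adjusted p = 0.459; 5.37% called), with overlap.

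None of the remaining differences within cell types passed. In cardiomyocyte-like cells Tet1 was at 27.9 and 30 CPM in the controls against 35.1 and 46.5 CPM after the DUX pulse (log2 0.59, SE 0.216, adjusted p = 0.0710), without overlap. In cluster 1 alone Tet1 was at 43.5 CPM (8 UMIs) in control replicate 1, between the 35.0 and 45.6 CPM of the DUX-pulsed libraries. The 12 cells of control replicate 2 there had 0 UMIs. In cluster 2 it was at 22.6 and 37.6 CPM against 38.0 and 51.7 CPM. In cluster 11 Tet1 was at 41.65 and 50.2 CPM in the controls against 30.45 and 31.1 CPM after the DUX pulse (log2 -0.59, SE 0.245, adjusted p = 0.233), also without overlap. In the part of cluster 11 led by Foxe1 its log2 difference was -0.13 (SE 0.303, adjusted p = 0.856). In cardiomyocyte-like cells 8 of the 37 S phase genes rose and none fell, where 9.02% of all genes tested rose. Their median log2 change was 0.35, against 0.0009 over all genes tested in those cells. Dnmt1 and Uhrf1 differed there by 0.11 and 0.46 without passing. The cardiomyocyte-like class held different clusters in the groups. The summed S phase level in cluster 14 was 835.7 and 905 CPM in the controls and 727.4 CPM in DUX-pulsed replicate 1, which was lower. In cluster 1 it was 825.8 CPM in control replicate 1 and 816.9 and 855.9 CPM in the DUX-pulsed libraries, which overlap it. Cluster 2 had higher levels, at 1284 and 1720 CPM in the 15 and 11 control cells. In its 107 and 59 DUX-pulsed cells they were 2027 and 1714 CPM, which overlap the controls. Dnmt3a differed by -0.27 in cardiomyocyte-like cells, -0.15 in mesenchyme-like cells, -0.08 in cluster 4 and -0.26 in cluster 11, with SE of 0.182 to 0.247. In cluster 4, where 7.58% of genes were called, the lowest p was that of Tet3 (log2 -0.50, SE 0.236, adjusted p = 0.262). In the low-depth cluster 9, 0.432% of 5088 genes were called and Tet1 had a log2 difference of -1.74 (SE 0.597, adjusted p = 0.276).

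A test of the class-by-group terms asked whether the difference varied between the 5 groups. Among all genes 11.7% of 13517 passed, and 2 of the 7 members tested did. Dnmt3b passed (adjusted p = 0.00516), with differences from -2.03 in cluster 11 to 0.35 in mesenchyme-like cells, a value that was -0.28 without the top 5% of doublet scores. It did not pass without control replicate 1 (adjusted p = 0.391) or without clusters 9 and 11 (0.483). Cluster 11 and the cardiomyocyte-like class held different cells in the groups, and the part of this in the interaction was not tested. Tet1 passed (adjusted p = 0.00775), with differences from -1.74 in cluster 9 to 0.59 in cardiomyocyte-like cells. It remained past the threshold without clusters 9 and 11 (0.0278), and did not without control replicate 1 (0.0924), DUX-pulsed replicate 1 (0.0967) or DUX-pulsed replicate 2 (0.165).

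Genes that work with the family were counted from lists. The lists were chosen with earlier results of these data known, and their counts are read beside the 15.6% higher and 11.1% lower over all genes and the median log2 change of -0.002. Of 15 genes listed as partners of maintenance methylation, a list that also holds histone methyltransferases, 1 rose and none fell (median -0.04). It was Nsd1, a histone H3 lysine 36 methyltransferase, at 62.1 ± 6.75 (SD, n = 2) CPM in the controls and 124 ± 7.23 in the DUX-pulsed libraries (log2 1, adjusted p = 0.00768). Zfp57, which protects imprinted methylation, was at 11.01 and 15.96 CPM on average and did not pass (adjusted p = 0.102).

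Of 20 TET cofactors and base excision repair genes, 6 rose and 3 fell (median -0.06). Gadd45b, a stress-inducible gene linked to demethylation, rose from 5.87 ± 1.70 to 33.5 ± 6.76 CPM (log2 2.51, adjusted p = 0.00293), and Neil3, a DNA glycosylase, rose from 3.55 ± 0.0292 to 8.69 ± 0.436 CPM (log2 1.29, adjusted p = 0.00699). Of 7 methyl-CpG readers none passed, with a median of 0.22. Their smallest p was that of Zbtb38 (log2 0.56, adjusted p = 0.0633), the 1 reader with an unadjusted p under 0.05, followed by Zbtb4 (log2 0.44, adjusted p = 0.158).

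Of 17 genes that supply one-carbon units and S-adenosylmethionine, the methyl donor, 4 rose and 1 fell (median 0.03). The 2 with the smallest p act in turn: Mtr, methionine synthase, rose from 2.74 ± 0.105 to 13.3 ± 1.43 CPM (log2 2.28, adjusted p = 0.00251), and Mtrr, which reactivates it, rose from 4.17 ± 0.418 to 8.21 ± 0.873 CPM (log2 0.98, adjusted p = 0.0195). Of the 37 S phase genes 3 rose and 2 fell (median -0.16). Ung, a uracil glycosylase that is also on the repair list, fell from 65.2 ± 0.705 to 37.4 ± 3.16 CPM (log2 -0.80, adjusted p = 0.0113), and Rpa2, which binds single-stranded DNA, rose from 29.96 ± 2.06 to 53.3 ± 6.26 CPM (log2 0.83, adjusted p = 0.0131).

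Germline genes whose promoters are methylated in somatic cells are a common readout of methylation, and most were near 0. Of 20 such genes 13 were high enough to test, and 3 rose and 1 fell (median -0.11). Mov10l1, a helicase of the piRNA pathway, rose from 0.992 ± 0.199 to 6.14 ± 1.39 CPM (log2 2.62, adjusted p = 0.00360). Tdrkh, a Tudor protein of the same pathway, rose from 5.09 ± 0.0756 to 10.4 ± 1.18 CPM (log2 1.03, adjusted p = 0.0128). The 1 that fell was Dazl, at 0.273 and 0.182 CPM against 0.0479 and 0.0550 CPM (log2 -2.13, adjusted p = 0.0424). Its value in DUX-pulsed replicate 2 lies below the floor of 3 counts there (0.0823 CPM). Dazl passed the filter on counts only through the controls, so a fall was the only call it could give. Within cell groups, 1 of 2 tested rose in cardiomyocyte-like cells (16.8% of all genes called) and 1 of 1 in cluster 4 (7.58%). In mesenchyme-like cells 2 of 3 fell (8.77%), and in cluster 11 none of 2 was called (2.71%). Methylation was not measured, and the part of the cell mix was not tested.

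The genes most like each member over the 56 sums, among 6162 genes with a mean of at least 20 CPM, were found by Pearson's r of log2(CPM + 1). Dnmt1 was closest to Tipin (0.90) and Mcm3 (0.89), and Uhrf1 to Rrm2 (0.87) and Rad51ap1 (0.87), and all 4 are on the S phase list. Dnmt3a was closest to Nudt3 (0.89) and Cnn2 (0.88), and Dnmt3b to Slc7a7 (0.82) and Gpd2 (0.81). Tet1 was closest to Tln2 (0.88) and to Parp1 (0.87), a repair gene of the list above. Tet2 was closest to Cep170 (0.81) and Ccdc88a (0.81), and Tet3 to Ttyh3 (0.78) and Trove2 (0.75). Dnmt3l had the weakest likeness, to the trophoblast marker Rhox9 (0.59) and to Bysl (0.54).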

How the data were processed

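The authors deposited UMI counts, whole numbers per cell that were not normalized. The submitters' processing notes name Cell Ranger 2.2.0, STAR and the mouse build mm10, with no role given for each. Group and replicate of a cell came from its column name, as in the titles. A cell was kept if it had 500 genes or more and a mitochondrial share no higher than 10%. Kept UMIs per library were 96344329 and 78167098 (control) and 65062824 and 36462169 (DUX-pulsed). Doublets were kept, because Scrublet called 27 cells (0.3%), too few to be credible.

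Cells were clustered by the Leiden method (scanpy 1.11.5, igraph 0.11.9) at resolution 1, from 2000 variable genes without the 8 members, log values scaled to 10000 counts a cell, 30 components and 15 neighbours. A cluster took a marker list's name with at least 4 of its top 30 genes, at least 3 and 50% of the markers raised, and no other list with more among its top 10 genes. These thresholds, and the split of cluster 11, were set after the data were seen, and different names could change class results.

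Counts were summed per library, or per class and library with at least 20 cells, and tested with edgeR 4.0.16 (quasi-likelihood, TMM, genes with at least 10 counts in 2 libraries and 40 in all), two-sided, with Benjamini-Hochberg adjustment over all genes tested and a threshold of 0.05. The interaction test had library and class as terms. Whole-culture CPM are TMM-scaled, and class CPM use the class's own total. Poisson intervals are exact at 95%. DESeq2 1.42.0 was an alternative, with other scalings, filters, clusterings, 5000 UMIs per cell and leaving out libraries. Fits were tested on simulated data. P-values measure only the spread between these libraries.

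The members and lists were chosen with earlier results of these data known. Named were all 8 members, the 2 genes with the smallest p of each list, and the 2 genes most correlated with each member. Positions came from GENCODE vM21, where 20021 of 20284 symbols matched, and promoters from RefSeq (GRCm38.p6), where all 8 matched.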

Additional observations from a re-analysis of the deposited data

Results flagged for a closer look

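The difference of Dnmt3b between DUX-pulsed and control cells differed between the 5 cell groups by the interaction test (adjusted p = 0.00516). Its log2 difference was -2.03 in cluster 11, -1.07 in cluster 9 and -0.44 in cluster 4. It was 0.30 in cardiomyocyte-like cells and 0.35 in mesenchyme-like cells. The last value was -0.28 without the top 5% of doublet scores, and 1 cell held 84 of the 144 Dnmt3b UMIs of mesenchyme-like cells in DUX-pulsed replicate 2. Without control replicate 1 the adjusted p was 0.391, and the number of genes past the threshold fell from 1582 to 508.

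The difference of Tet1 also differed between the groups (adjusted p = 0.00775), from -1.74 in the low-depth cluster 9 and -0.59 in cluster 11 to 0.59 in cardiomyocyte-like cells. In the part of cluster 11 led by Foxe1 the Tet1 difference was -0.13. The part of the cell mix within these groups was not tested. Without clusters 9 and 11 the adjusted p was 0.0278, and leaving out 1 library gave 0.0211 to 0.165.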

How the results depend on the processing

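Several genes with small differences changed sign between settings, and none of these was called except Dnmt3a in the whole culture. Of all other single-gene values, 454 kept direction and call, 19 lost a call and 15 gained one. In the whole culture Tet3 (-0.003) was 0.0012 with DESeq2, 0.0011 with its size factors, 0.0057 in all deposited cells, 0.0012 without the top 5% of doublet scores, and -0.22 to 0.27 leaving out 1 library. With library size alone Dnmt1 was -0.023 and Uhrf1 -0.0088, and in the 5 shared cell groups Dnmt1 was -0.0083, Uhrf1 -0.22 and Dnmt3a -0.073. With 5000 UMIs per cell Uhrf1 was -0.028. Leaving out 1 library, Dnmt1 ran from -0.11 to 0.20. In cardiomyocyte-like cells Dnmt3b was -0.092 under the stricter cell limits, Dnmt1 was -0.0069 with library size alone, -0.012 when thinned and -0.057 to 0.30 without 1 library, and Uhrf1 was -0.028 when thinned. In cluster 11 Tet3 was -0.17 and Dnmt3a 0.10 when thinned, Uhrf1 was 0.078 without the top doublet scores, and leaving out 1 library gave -0.32 to 0.53 for Tet3 and -0.071 to 0.19 for Dnmt1. In cluster 4 Dnmt1 was -0.0025 with library size alone and Dnmt3a ran from -0.23 to 0.12. In cluster 9 Dnmt3a ran from -0.012 to 0.70. In mesenchyme-like cells Dnmt3b was -0.39 when thinned, -0.28 without the top doublet scores and -0.14 to 0.75 without 1 library, Dnmt1 was -0.12 with library size alone and -0.21 to 0.25, Tet1 -0.27 to 0.21, and Tet3 -0.35 to 0.046.

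Counts of called genes moved more. Whole culture (4306 genes, 3 members) gave 2042 under the stricter cell limits, 1308 genes and 1 member in the 5 shared groups, and 2134 to 4972 without 1 library. Cardiomyocyte-like cells (1907) gave 1217 with DESeq2, 1017 under stricter limits, 660 when thinned, and 912 to 1396 without 1 library, and the 1 member called there became 0 with library size, DESeq2 and thinning, and 0 to 1 without 1 library. Cluster 11 (279) gave 90 with library size, 74 when clustered with the 8 members, 10 when thinned, 47 without the top doublet scores and 48 to 1416 without 1 library, with 1 member called by DESeq2 (Dnmt3b) and 0 to 1 without 1 library. Cluster 4 (817) gave 503 with DESeq2, 117 when thinned, and 401 to 777, with 0 to 1 members. Cluster 9 (22) gave 8 with library size, 0 at resolution 0.5, and 46 to 134, with 0 to 1 members. Mesenchyme-like cells (1060) gave 380 when thinned and 632 to 1514. The interaction (1582) gave 496 to 830, with 0 to 2 members, and 1 member without clusters 9 and 11. The causes were not tested.

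Replicate numbers are all that the labels share between groups. Deviations of same-numbered libraries correlated at 0.594 over 6371 genes. With the replicate block, calls in the whole culture were 7184 genes and 5 members, of which 2 were higher and 3 lower. Whole-culture Tet3 was then 0.0097. Within groups, calls were 3897 and 3 in cardiomyocyte-like cells, 2796 and 1 in mesenchyme-like cells, and 1927 and 1 in cluster 11. They were 1912 and 1 in cluster 4, and 14 genes in cluster 9. With 2 pairs the block is no evidence of pairing.

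The alternatives on doublets, shared groups, parts of clusters, and clusters 9 and 11 were chosen after seeing the data. The stricter limits gave no value for clusters 4, 9 and 11, resolution 0.5 none for clusters 4 and 11, and thinning none for cluster 9, for lack of 20 cells in each library or of a matching cluster. Dnmt3l was limited by depth and by few cells.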
